A study of Mus musculus with 12 samples.

Results

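The pre-meiotic class is a group of 137 of the 929 cells kept by the authors in a single-cell RNA study of mouse testis germ cells. Its members are the cells that the authors' deposited cell table annotates as pre-meiotic, which are exactly the cells of 1 of their k-means clusters. The other 792 kept cells were annotated as early pachytene (302 cells) or late pachytene (490 cells). C57BL/6 mice were either wild type or Zfp541 knockout. Both genotypes received WIN 18,446, a blocker of retinoic acid synthesis, by mouth from 2 days after birth for 7 days, then an injection of retinoic acid (RA) on day 8. Testes were taken 260 h or 360 h after the injection and dissociated with enzymes, and single cells were picked by mouth pipette. Each of the 4 groups had 3 libraries of 96 cell barcodes, and all 96 barcodes were used in every library. The labels name neither the deleted part of Zfp541 nor the animals behind each library. The libraries of a group are taken as separate samples, and a p-value then covers only library-to-library variation, some of which may be technical.

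Pre-meiotic male germ cells are spermatogonia, which divide by mitosis, and cells that are leaving that state to enter meiosis. Undifferentiated spermatogonia carry the transcription factor ZBTB16 (PLZF). RA moves them into a differentiating state marked by the receptor tyrosine kinase KIT, and later induces STRA8, which is needed for meiotic entry. The X chromosome is transcribed in spermatogonia and is silenced when spermatocytes reach pachytene. CYP26 enzymes degrade RA, and their genes are RA targets in many tissues. RA acts through nuclear receptors that bind repeated half-sites in DNA.

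The stretches before the start sites of Stra8 and Cyp26a1 are shown because RA acts on both genes and their levels in the class are described beside each other below. Both come from RefSeq on GRCm38.p6, plus strand, and end at the base before the RefSeq start site. Stra8 is chr6:34920698-34920947 and Cyp26a1 is chr19:37697558-37697807. Capitals mark the receptor half-sites AGGTCA and AGTTCA, searched on both strands, so that TGACCT and TGAACT were also marked.
Stra8: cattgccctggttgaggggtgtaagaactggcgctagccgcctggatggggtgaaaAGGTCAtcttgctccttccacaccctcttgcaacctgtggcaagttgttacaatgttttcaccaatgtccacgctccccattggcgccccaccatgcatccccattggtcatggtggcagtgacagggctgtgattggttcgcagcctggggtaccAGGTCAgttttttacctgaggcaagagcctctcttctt
Cyp26a1: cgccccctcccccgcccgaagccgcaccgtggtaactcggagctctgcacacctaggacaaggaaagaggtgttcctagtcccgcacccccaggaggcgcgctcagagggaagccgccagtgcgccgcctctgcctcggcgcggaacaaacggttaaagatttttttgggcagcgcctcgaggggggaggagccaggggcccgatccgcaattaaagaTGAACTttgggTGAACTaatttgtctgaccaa
The Stra8 stretch held AGGTCA with its first base at −194 and at −38 from the start site. The Cyp26a1 stretch held TGAACT at −32 and −21. In RefSeq promoter windows of 300 bases (250 before the start and 50 after), 2 or more such half-sites stood in 5.23% of 32851 promoters and at least 1 in 27.7%. RefSeq windows were found for 5 of the 7 class markers, and the windows of Kit, Crabp1, Uchl1 and Zrsr2 held none of these letters, nor did the 3 windows of Dhrs3, an RA gene described below. In the deposited annotation Stra8 starts upstream of this window (chromosome 6, 34920163 to 34939344), so the stretch lies inside the gene as annotated there. A match of letters is a description, not a bound site.

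The class was unevenly spread over the libraries. At 260 h it held 24, 11 and 17 cells in the wild-type libraries (46.2%, 16.2% and 19.1% of kept cells) and 23, 20 and 18 cells in the knockout libraries (28%, 28.6% and 36.0%). At 360 h the wild-type libraries held 2, 2 and 1 class cells. The knockout libraries at 360 h held 0, 9 and 10, and 0 of 77 cells allows a share of up to 3.90%. The 95% Wilson intervals at 360 h were 0.648% to 8.18% in wild-type library 1 and 6.22% to 19.5% in knockout library 3. These shares follow both the picking of cells and a clustering of these same cells, so they were not tested. Levels were compared in the 8 libraries with at least 5 class cells, which leaves wild type at 360 h with values only.

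Class cells had 46513 to 262145 gene UMIs (molecule counts) each, with a median of 88543, and a median of 9994 detected genes. The other kept cells had a median of 122569.5 gene UMIs and 9945 genes. The summed class cells of the 8 libraries held 682733 to 2861429 gene UMIs. Gene UMIs per spike-in UMI, a measure of RNA per cell relative to the added ERCC standards, differed between class and other cells by −0.10 ± 0.13 on the log2 scale (mean ± SD, n = 8 libraries). The class was higher in 2 of the 8 libraries (exact two-sided sign-flip permutation test, p = 0.0859, smallest possible 0.00781). The class was cut from these same cells by clustering, and whether spike-ins entered the clustering is not known. The p-values of this paragraph are therefore descriptive only. Without knockout library 1 or 2 at 260 h, the 2 where the class was higher, the difference was −0.12 in each case (exact p = 0.0469). Against early pachytene cells alone it was 0.08 (n = 7 libraries, exact p = 0.797), which rested on knockout library 2 at 360 h, where 5 early cells gave 0.91. Those 5 cells had a median of 49997 gene UMIs and 2.69% of UMIs from X-linked genes, against 1.94% in the class cells there. Early cells at 260 h had 0.359% to 0.582%, so these 5 were unlike the early cells elsewhere. In the 6 libraries at 260 h it was −0.05 (exact p = 0.438), an alternative chosen after seeing the data.

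The 7 genes that mark the class were all at least 2-fold higher in class cells than in the other kept cells in the mean, with a higher level in each of the 8 libraries. This is a description with no test, because the class was made by clustering these same cells. Levels here are CPM, UMI counts brought to a common total per library and scaled by TMM over the class and other sums together. Differences are of log2(CPM + 1) within a library, which understates low genes. By the rule of at least 2-fold in the mean and the same sign in every library, 1914 of 11772 genes were higher in the class (16.3%) and 1861 lower (15.8%), and the median over all genes was −0.08. The median over the 7 markers was 3.03.

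**Figure D1:**
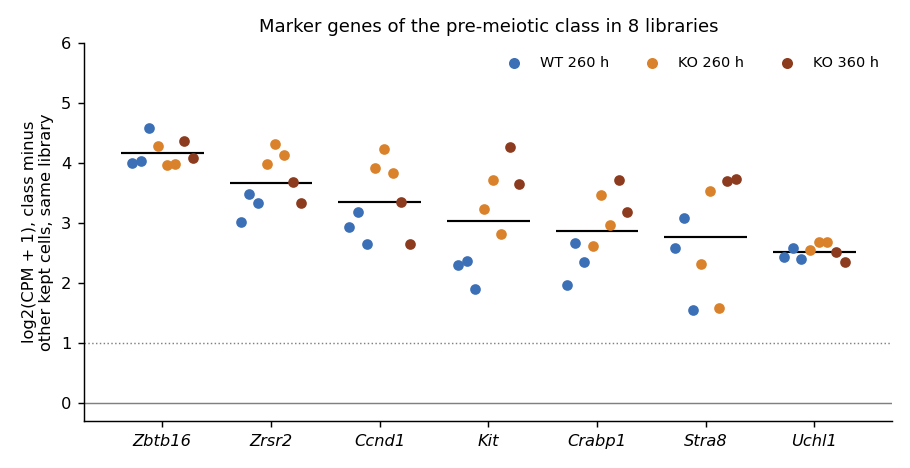
Difference in log2(CPM + 1) between class cells and the other kept cells of the same library for the 7 marker genes, 1 point per library (n = 8) and a line at the mean. The dotted line marks a 2-fold difference, and every point lies above it.

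Zbtb16 (chromosome 9, 48654297 to 48836222 in mm10) had class levels of 126, 215 and 226 CPM in wild-type libraries 1 to 3 at 260 h. The knockout libraries had 116, 50.1 and 206 CPM at 260 h, and knockout libraries 2 and 3 at 360 h had 108 and 62.8 CPM. The other cells of these libraries stood between 2.29 and 12.2 CPM, so that class and other levels did not overlap (log2 difference 4.16 ± 0.22, SD, n = 8). Kit (chromosome 5, 75574916 to 75656722), the receptor of differentiating spermatogonia, had class levels of 128, 49.5 and 13.7 CPM in wild-type libraries 1 to 3 at 260 h, and 69.6, 221 and 87.9 CPM in knockout at 260 h. At 360 h it had 281 and 245 CPM in knockout. The lowest class library for Kit, wild-type library 3, lay below the highest library of other cells (25.3 CPM), and its own other cells had 2.97 CPM. The difference within libraries was 3.03 ± 0.82 for Kit.

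Uchl1, encoding a deubiquitinating enzyme abundant in spermatogonia, varied least, from 712 to 1138 CPM in the class and 110 to 223 CPM in the other cells (log2 difference 2.52 ± 0.13). Zrsr2, an X-linked splicing factor gene, had 197 to 562 CPM against 16.8 to 32.4 CPM (3.66 ± 0.45). Crabp1, encoding a cytoplasmic RA-binding protein, had 74.7 to 376 CPM against 13.9 to 51.1 CPM (2.86 ± 0.58). Neither of the last 2 genes' class range met its range in the other cells. Ccnd1, the cyclin D1 gene of the G1 phase, had 16.1 to 172 CPM against 1.04 to 8.26 CPM (3.34 ± 0.60). Stra8 had the widest class range, from 15.6 to 1509.5 CPM, against 4.69 to 115 CPM in the other cells (2.76 ± 0.90). For Stra8 the ranges overlapped between libraries, although the class was higher in each library.

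Genes of undifferentiated spermatogonia were mostly higher in the class. Of 21 such genes, 12 passed the filter on low counts, 9 were at least 2-fold higher and 1 was lower, with a median of 2.43. The 3 most abundant over class and other cells together were Zbtb16, Foxo1, a forkhead factor gene of spermatogonial self-renewal, at 120 CPM against 30.7 (1.96 ± 0.66), and Id4, a marker of spermatogonial stem cells, at 91.5 CPM against 308 (−1.81 ± 0.60). Id4 was thus lower in the class than in the pachytene cells. Members chosen after their values were seen included Sall4, a zinc finger factor, at 126 CPM against 12.8, and Ret, the GDNF receptor kinase, at 45.8 CPM against 4.98. The stem cell genes Nanos2, Eomes and Neurog3 did not pass the filter, with class medians of 2.86, 1.09 and 0.901 CPM over the 8 libraries before TMM scaling. Eomes and Neurog3 were at 0 in 4 of 8 class libraries each. Gfra1, the GDNF co-receptor, was low at 13.0 CPM in the class and 1.98 in the other cells, and was not past the rule.

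Genes of differentiating spermatogonia were higher in 14 of 16 cases, with none lower and a median of 2.64. The list shares Kit, Stra8, Ccnd1, Uchl1, Crabp1 and Zrsr2 with the markers, so it does not stand as a separate observation. Among the others, Dmrt1, a DM-domain factor that holds off meiosis in spermatogonia, was at 278 CPM against 34.2, and Sohlh1, a helix-loop-helix factor of differentiation, at 149.5 CPM against 17.2. The members not past the rule were Dmrtb1 (88.3 CPM against 82.9) and Sohlh2 (94.9 CPM against 205). Of the 8 DNA methylation genes 5 were tested and 4 were higher. Dnmt3a, a de novo methyltransferase gene, was at 149 CPM against 39.5 (2.17 ± 0.95), and Dnmt1, the maintenance methyltransferase gene, at 300.2 CPM against 119 (1.31 ± 0.44). Uhrf1, which brings DNMT1 to replicated DNA, was at 102 CPM against 93.0 (0.14 ± 0.17).

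RA genes fell on both sides. Of 22 listed, 15 were tested, 6 were higher and 3 lower, and their median was 0.31. Those higher beside Crabp1 and Stra8 included the receptor genes Rara (19.1 CPM against 4.68), Rarg (34.7 against 8.07) and Rxra (34.7 against 9.82). Lower were Aldh1a2, which makes RA from retinaldehyde (63.5 CPM against 122, −1.10 ± 0.41), Rdh11, a retinal reductase gene (31.3 against 125), and Lrat, which stores retinol as esters (11.2 against 48.5). The receptor genes Rarb and Rxrg had class medians of 0 and 0.349 CPM before TMM scaling.

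Cell cycle genes were split. Of 34 DNA replication genes 13 were higher and 2 lower, with a median of 0.79. Lig1, the replicative DNA ligase gene, was at 321 CPM against 113 (1.62 ± 0.72), while Pcna, the sliding clamp gene, was at 176 CPM against 250.5 (−0.47 ± 0.37) and was not past the rule. Of 21 genes of mitotic division 8 were higher and none lower, with a median of 0.43. Cenpe, a kinetochore motor gene, was at 402 CPM against 194 (1.02 ± 0.28), and Top2a, a topoisomerase gene used in both kinds of division, at 678 against 670 CPM (0.02 ± 0.27). Against early pachytene cells alone Top2a was at −0.12, and at −0.06 in the libraries at 260 h.

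**Figure D2:**
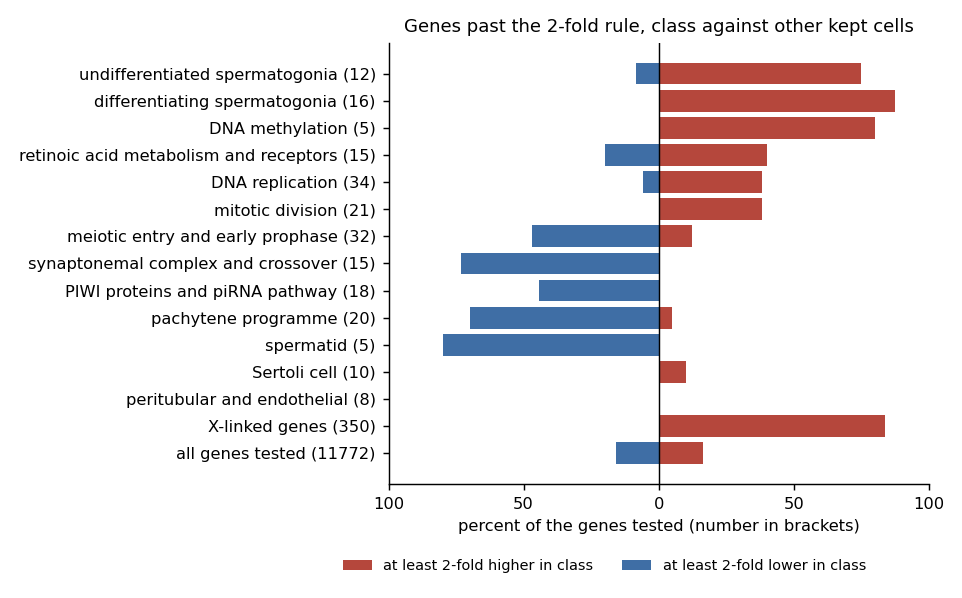
Percent of the tested genes of each list that were at least 2-fold higher (right) or lower (left) in class cells than in the other kept cells, with the same sign in all 8 libraries. Differentiating spermatogonia genes and X-linked genes were mostly higher, at 87.5% and 83.7%, against 16.3% of all genes. The tested pachytene and synaptonemal complex genes were mostly lower, as were 4 of the 5 spermatid genes tested out of 23 listed.

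Meiotic genes were lower more often than higher in the class, and several of them were abundant in it. Of 32 genes of meiotic entry and early prophase 15 were lower, 4 higher and 13 not past the rule, with a median of −0.96. Sycp1, the transverse filament of the synaptonemal complex, was at 751 CPM against 1958 (−1.31 ± 0.47) and had a UMI in each of the 137 class cells. Sycp2, of its lateral element, was at 378 CPM against 1233 (−1.73 ± 0.48), and Smc1b, a meiotic cohesin gene, at 482.5 against 1003 (−1.06 ± 0.35). The 4 higher genes were Stra8, the X-linked Tex11, Rec114 of the break machinery, and Tex15, a gene of meiotic repair and retrotransposon silencing.

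Of 15 synaptonemal complex and crossover genes 11 were lower and none higher (median −1.33). They included Syce3 (382 CPM against 843) and Syce1 (260 against 575), both of the central element, while Syce2 stood at 297 against 316 CPM and was not past the rule. Of 18 piRNA pathway genes 8 were lower and none higher (median −0.93), with Ddx4, the germ cell RNA helicase gene, at 548 CPM against 1116. Mael and Mov10l1 were not past the rule, at 504 against 817 CPM and 405 against 778 CPM. Of 20 pachytene genes tested from 24 listed, 14 were lower and 1, Cdc25c, was higher (median −1.65). Ldhc, the germ cell lactate dehydrogenase gene, was at 667 CPM against 1744 (−1.62 ± 0.60), and Clgn, a chaperone gene of spermatocytes, at 158 CPM against 732 (−2.36 ± 0.68). Only 5 of 23 spermatid genes passed the filter, and 4 of them were lower. Among those that did not pass, Tnp1 and Izumo1 were higher in the class, with medians of 7.42 against 0.451 CPM and 4.93 against 0.448 CPM before TMM scaling. Most of the rest had a class median of 0. Prm1, the protamine gene of late spermatids, had no UMI in 137 class cells, which allows a share of cells with a UMI of up to 2.19% and sets no limit on cells that express it. It had one in 24.1% of the deeper late pachytene cells.

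Of the 6 genes of the ZFP541 complex list 3 were lower and none higher (median −1.17). Kctd19, whose protein binds ZFP541, was at 30.4 CPM in the class against 227 (−3.07 ± 0.81). Zfp541 itself was at 47.6 CPM against 144 (−1.86 ± 0.86). Hdac1 and Hdac2, the deacetylase genes, were at 145 against 232 CPM and 156 against 154 CPM, and neither was past the rule.

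The genes with the largest differences upward, besides Zbtb16, were Usp26, an X-linked deubiquitinase gene of the testis (266 CPM against 14.3, 4.21 ± 0.53), Dkc1, the X-linked pseudouridine synthase gene of ribosomal RNA and telomerase (114 against 8.79), and Klf7, a Krüppel-like factor gene (64.1 against 4.01). Phgdh, the first enzyme of serine synthesis, was at 63.2 CPM against 3.88, and the forkhead gene Foxr1 at 67.8 against 5.03. Gng13, a G protein subunit gene, Cmip, and the X-linked Pin4 had differences from 3.73 to 3.88. Xlr5a, Xlr3c and the pseudogene Rpl36a-ps2 were also among them, but they have near-identical copies and are uncertain. The largest differences downward were of Mir7241, a microRNA gene (2.43 CPM against 31.2, −3.58), and Aym1 (3.11 against 37.8, −3.38). Kcnk10, a potassium channel gene, was at 17.0 CPM against 166 (−3.37 ± 0.60), Spag17, of the central pair, at 28.5 against 221, and Dnah7a, an inner arm dynein gene, at 35.7 against 265. Fsip2, of the fibrous sheath, was at 53.7 CPM against 359. Kctd19, described above, and Rsph3a, Rsph3b, Als2cr12, Zfp389 and Elfn2 completed the 12, with differences from −3.07 to −2.94. Rsph3a and Rsph3b are close copies of a radial spoke gene and are uncertain.

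X-linked genes were higher in the class more often than autosomal ones, which is again a description with no test. Of 350 X-linked genes tested, 293 were at least 2-fold higher in the class (83.7%), none was lower, and the median was 2.41. On the 19 autosomes 11.6% to 16.8% of genes were higher. Of 9 Y-linked genes 6 were higher, and of 13 mitochondrial genes none was past the rule. The 9 X-linked spermatogonial genes were all higher, among them Taf7l, a TFIID subunit paralog (454 CPM against 51.9, 3.23 ± 0.62), and Nxf2, an RNA export factor gene (257 against 26, 3.35 ± 0.53).

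X-linked genes took 2.5%, 1.83% and 1.79% of the class UMIs in the wild-type libraries at 260 h, and 2.18%, 2.29% and 2.27% in the knockout libraries. Knockout libraries 2 and 3 at 360 h had 1.94% and 1.67%. The other cells of the same libraries had 0.359% to 0.562%, so the class was 4.31 to 5.85 times higher (median 4.82) and the ranges did not overlap. The 5 class cells of wild type at 360 h gave 1.75%, 1.41% and 2.62% by library. By cell the share ran from 1.15% to 2.79% in the class, with a median of 2.11% against 0.283% in the other cells. Of the 792 other cells, 11 were at or above the lowest class cell, 8 annotated early and 3 late pachytene. These 11 were 5 and 2 cells of knockout libraries 2 and 3 at 360 h, 1 of wild-type library 1 at 260 h, and 3 of wild-type library 3 at 360 h. The 5 and 2 cells were all the cells annotated early pachytene in those knockout libraries.

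**Figure D3:**
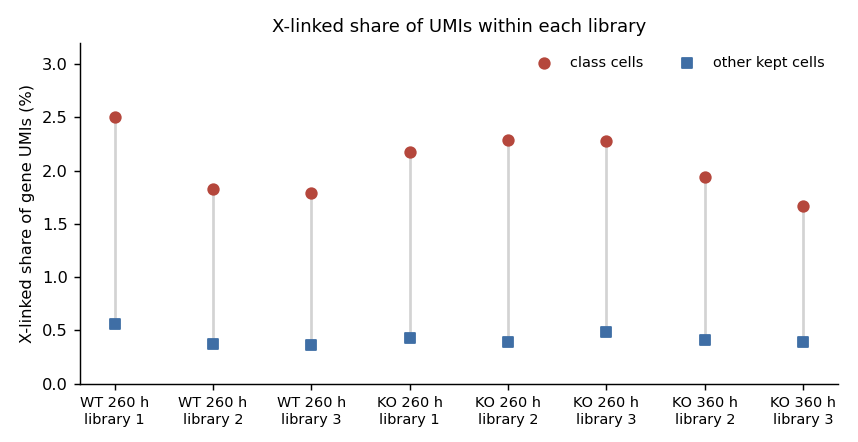
Share of gene UMIs from X-linked genes in the summed class cells (circles) and the summed other kept cells (squares) of each of 8 libraries, joined by a line within a library. Class values lie between 1.67% and 2.5%, and the others between 0.359% and 0.562%.

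Markers of somatic testis cells had similar ranges in class and other cells. Of 10 Sertoli genes tested, Wt1, a transcription factor gene of Sertoli cells, was higher (16.1 CPM against 7.33, chosen after its value was seen) and none was lower. None of 8 peritubular and endothelial, 4 macrophage and blood, or 1 Leydig gene was past the rule. Before TMM scaling, the summed level of 19 Sertoli genes ran from 273 to 715 CPM in the class and 279 to 639 CPM in the other cells. The 16 macrophage and blood genes ran from 19.7 to 779 CPM and from 8.13 to 702 CPM, with Cx3cr1 at 0 in the class, and the 10 Leydig genes from 16.3 to 134 CPM and from 19.7 to 122 CPM, with Hsd17b3 at 0 in the class. The 17 peritubular and endothelial genes ran from 90.3 to 328 CPM and from 53.3 to 346 CPM. Clu, a Sertoli transcript, had a UMI in all 137 class cells and in 99.7% of early and 95.7% of late pachytene cells, at a median depth of 88543, 86167.5 and 143099.5 UMIs per cell. The share of cells with a Clu UMI was thus high under every annotation, and levels are used instead for the somatic genes. For some other genes the share did differ: Zbtb16 had a UMI in 91.2% of class, 47.7% of early and 18.2% of late pachytene cells. Uchl1 was like Clu, at 100%, 99.7% and 94.7%. Of 13 stress and immediate early genes 4 were higher, among them Fos (74.2 CPM against 36.0) and the heat shock gene Hspa1a (23.8 against 4.83), and Ddit3, of the integrated stress response, was lower (14.5 against 61.1).

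The class cells were not uniform. At a level of 100 CPM or more, 58 of 137 cells had Zbtb16 without Kit, 56 had Kit without Zbtb16, 9 had both and 14 neither. Over the 137 cells Zbtb16 and Kit had a Spearman correlation of −0.60, and within the 7 libraries for which it was computed it ran from −0.80 to −0.18. Kit and Stra8 had 0.65 over all cells and 0.21 to 0.68 within libraries. Zbtb16 and Dmrtb1 had −0.63, and −0.75 to −0.05 within libraries. These correlations describe cells that share libraries and depth, and no p is given for them. Wild-type library 3 at 260 h held 15 cells with Zbtb16 alone and 2 with Kit alone. Knockout library 2 at 260 h held 2 and 12. In the sums over a library, fewer cells of a kind and less RNA per cell cannot be told apart.

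**Figure D4:**
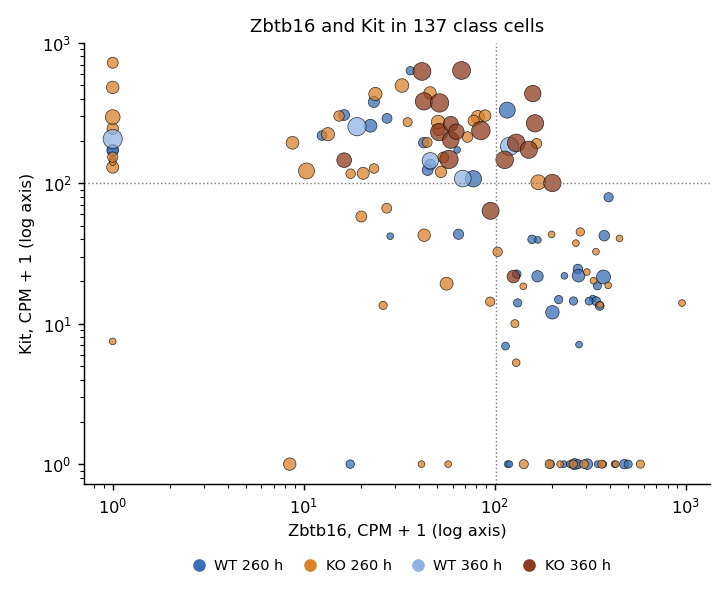
Level of Kit against Zbtb16 in each of the 137 class cells, in CPM + 1 on log axes, coloured by group, with point size growing with the Stra8 level. Dotted lines mark 100 CPM: 58 cells lie in the corner with Zbtb16 alone, 56 in the corner with Kit alone and 9 above both.

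High Stra8 levels were found mostly at 360 h. A Stra8 level of at least 1000 CPM was reached by 23 class cells. They were 8 of 9 and 7 of 10 cells in knockout libraries 2 and 3 at 360 h, and all 5 class cells of wild type at 360 h. At 260 h they were 2 of 11 cells in wild-type library 2 and 1 of 20 in knockout library 2, and none in the other libraries of that time.

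The effect of the knockout on the class could be tested at 260 h, with 3 libraries a group. Levels from here on are CPM scaled by TMM over the class sums alone. Group levels given for the interaction of class and genotype are instead scaled over the class and other sums together. Zfp541 itself stood at 9.97, 43.2 and 67.3 CPM among wild-type class cells and at 55.7, 24.8 and 22.6 CPM in those labelled knockout, and at 75.9 and 105 CPM in knockout at 360 h. The groups overlapped, and the gene was not called (log2 fold change −0.21 ± 0.55, edgeR adjusted p = 0.943). The counts come from 3′ ends and the deleted part is not known here, so this level checks nothing about the labels. Of 13169 genes tested, edgeR's quasi-likelihood test called 2 higher in knockout (0.0152%) and 2 lower (0.0152%) at a Benjamini-Hochberg adjusted p under 0.05. At an unadjusted p under 0.05 there were 1470.

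Akap7, encoding an anchoring protein of protein kinase A, was at 52.6, 72.9 and 53.4 CPM in knockout against 6.23, 5.57 and 8.52 CPM (log2 fold change 3.08 ± 0.43, edgeR adjusted p = 0.0224). Pcsk1n, the X-linked gene of a proprotein convertase inhibitor, was at 89.3, 212 and 56.4 CPM against 8.10, 4.18 and 13.6 CPM (3.66 ± 0.53, adjusted p = 0.0224). Fsip2 was lower, at 15.9, 15.3 and 7.53 CPM against 51.1, 86.4 and 64.3 CPM (−2.33 ± 0.38, adjusted p = 0.0477). The 5S ribosomal RNA gene n-R5s196 was lower too (−4.46 ± 0.65, adjusted p = 0.0224), and as 1 of many near-identical copies it is uncertain. For each of the 4 genes the groups did not overlap, as for 14.8% of all genes tested. In knockout at 360 h the class had 7.81 and 5.43 CPM of Akap7, near the wild-type level at 260 h. The other called genes also left their knockout range of 260 h. Pcsk1n was at 11.2 and 19.9 CPM, Fsip2 at 83.7 and 129 CPM, and n-R5s196 at 12.3 and 14.5 CPM in knockout at 360 h.

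None of the 7 markers was called between genotypes at 260 h. Ccnd1 had the smallest p, at 107, 193 and 110 CPM in knockout against 74.2, 25.1 and 39.6 CPM (1.54 ± 0.38, adjusted p = 0.113). Stra8 was at 66.4, 318 and 51.9 CPM against 64.8, 364 and 17.5 CPM (0.02 ± 1.25, adjusted p = 0.996). Zbtb16 was at 138 ± 85.8 CPM against 207 ± 61.0 (SD, n = 3 each; −0.59 ± 0.42, adjusted p = 0.668), and Kit at 141 ± 93.0 against 69.5 ± 64.1 (1.02 ± 0.78, adjusted p = 0.706). Of the 22 pachytene genes tested none was called, with a median of −0.99 against −0.03 over all genes. Leydig genes had a median of −2.37 with none of 7 called, at 16.3 to 134 CPM summed over 10 genes in the wild-type class libraries and 19.9 to 40.5 CPM in the knockout ones before TMM scaling. Macrophage and blood genes had a median of −1.16 with none of 9 called, among them Lyz2, a lysozyme gene, at 0.115 ± 0.200 CPM against 13.7 ± 15.6 (SD, n = 3 each). The part of either list in the result was not tested. None was called among 17 genes of undifferentiated spermatogonia (median −0.46), 16 of differentiating spermatogonia (0.24) or 16 RA genes (0.01). Gene UMIs per spike-in UMI differed by −0.07 on the log2 scale (exact two-sided permutation test, p = 1, smallest possible 0.1).

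The count at 260 h rested on single libraries. Without wild-type library 2 edgeR called none, and 136 higher and 210 lower without wild-type library 1, or 159 and 49 without wild-type library 3. With DESeq2 121 genes were higher and 107 lower, with no filter beyond 1 UMI 143 and 129, and with limma-voom or with cells thinned to 40000 UMIs none either way.

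Time could be tested within the knockout, with libraries 2 and 3 at 360 h (9 and 10 class cells) against the 3 knockout libraries at 260 h. Here edgeR called 586 genes higher at 360 h (4.45%) and 401 lower (3.05%). Among them were 4 of 16 RA genes and 12 of 22 pachytene genes, all higher, and 4 spermatogonial genes including Ccnd1, all lower. Leaving out knockout library 3 at 360 h gave 127 and 17, and leaving out library 2 there gave 263 and 46. Each of these fits has 1 library at 360 h, which is assumed to vary like the other groups, and fewer calls come with fewer samples. Scaled by spike-in UMIs the counts were 336 and 35. The 16 macrophage and blood genes summed to 19.7 to 105 CPM in the class at 360 h and 52.4 to 619 CPM at 260 h before TMM scaling, with none called. The 14 immediate early and stress genes had a median of −1.17 against −0.03 over all genes, none called, with Jun at 17.8 and 21.7 CPM against 48.1, 42.4 and 40.6 CPM. The part of either list in the result was not tested.

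Of 16 RA genes tested 4 rose and none fell, with a median of 0.53 against −0.03 over all genes. Cyp26a1, the RA-degrading enzyme, had 0 UMIs in the 61 class cells of the 3 knockout libraries at 260 h, and 14 and 10 UMIs in knockout libraries 2 and 3 at 360 h, in 7 of 9 and 5 of 10 cells. Against a limit of 3 UMIs summed over the 260 h group this was 25.2-fold higher (edgeR adjusted p = 0.0464). That ratio takes the 24 UMIs at 360 h as exact, so it is no lower limit. The gene passed the filter on low counts through the 2 libraries at 360 h, where it was high, and the call carries that choice. The call was lost with DESeq2 (adjusted p = 0.283), without knockout library 3 at 360 h (0.201), and without any 1 of the 3 knockout libraries at 260 h (0.0829 to 0.121). In wild type it had 4 UMIs in 2 of 11 cells of library 2 at 260 h and none in the other 2 libraries, and at 360 h 5, 4 and 0 UMIs. The other cells of the 2 knockout libraries at 360 h had 2.55 CPM against 12.1 CPM in the class, both before TMM scaling.

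Dhrs3, a retinaldehyde reductase gene that lowers RA, was at 48.0 and 96 CPM at 360 h against 1.73, 1.43 and 1.51 CPM (log2 fold change 5.45 ± 0.80, edgeR adjusted p = 0.000995). It was at 4.53, 3.83 and 0 CPM in the few wild-type class cells at 360 h before TMM scaling, below the knockout libraries of that time. In the other cells of the 2 knockout libraries it was at 113 CPM, against 4.41 CPM in those at 260 h, a rise from one time to the other in both populations. Aldh1a2 rose from 36.7, 29.6 and 36.9 CPM to 115 and 157 CPM (1.98 ± 0.40, adjusted p = 0.00717), with 198 CPM in the other cells of the 360 h libraries.

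Stra8 was at 1535 and 1326 CPM at 360 h against 66.4, 318 and 51.9 CPM, with no overlap, as for 46% of all genes tested, and was not called (3.29 ± 1.40, adjusted p = 0.239). The 3 libraries of wild type at 360 h, with 2, 2 and 1 class cells, had 1982, 1234 and 2424 CPM before TMM scaling. The other cells of the 2 knockout libraries at 360 h had 96 CPM. Kit was at 286 and 247 CPM against 78.2, 248 and 97.1 CPM (adjusted p = 0.575), Zbtb16 at 109 and 63.4 against 131, 56.3 and 227 CPM (adjusted p = 0.449). Ccnd2, the cyclin D2 gene, was at 726 and 347 CPM against 46.4, 81.1 and 222 CPM (2.22 ± 0.64, adjusted p = 0.0683), and was not called.

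**Figure D5:**
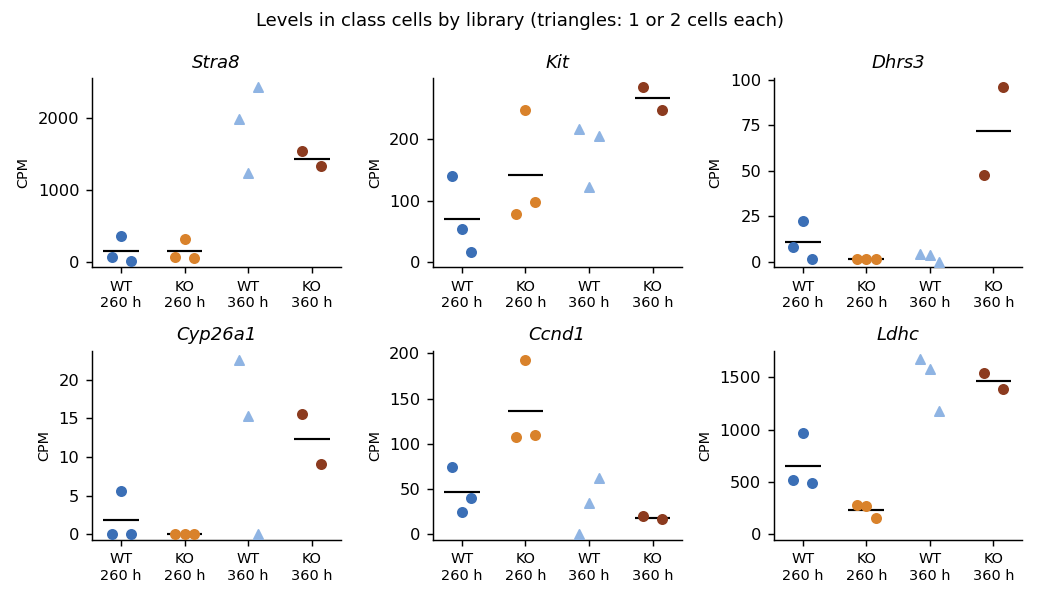
Levels of 6 genes in class cells by library and group, in CPM, with a line at the group mean. Circles are libraries with at least 9 class cells, scaled by TMM, and triangles are the wild-type libraries at 360 h, which hold 1 or 2 class cells each and are not TMM-scaled. Stra8, Dhrs3 and Ldhc are higher in both knockout libraries at 360 h than in every library at 260 h.

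Ccnd1 fell from 107, 193 and 110 CPM to 20.1 and 16.3 CPM (log2 fold change −2.91 ± 0.49, edgeR adjusted p = 0.00263), and with 1 library left at 360 h, without knockout library 3, the adjusted p was 0.0701. Of 16 genes of differentiating spermatogonia 3 fell and none rose. They were Ccnd1, the X-linked homeobox gene Rhox13 (130 to 25.5 CPM) and Dmrtb1 (175 to 36.6 CPM), which coordinates the switch from mitosis to meiosis. Wild-type class cells at 260 h had means of 46.3, 40.6 and 59.6 CPM of these genes in turn. Those lay below knockout at 260 h, with none of the 3 called between genotypes. In the few wild-type class cells at 360 h Dmrtb1 did not stand low, with cell medians by library of 131, 310 and 143 CPM before TMM scaling. Of 17 genes of undifferentiated spermatogonia 1 fell, Nanos3, an RNA-binding protein gene (65.6 to 23.2 CPM). Of 34 DNA replication and 21 mitotic genes none was called. The most extreme lower gene was Gm14513, an X-linked processed pseudogene, at 1.12 and 1.81 CPM against 722, 395 and 471 CPM. It was at 308 to 625 CPM in wild type at 260 h and at 0, 3.83 and 0 CPM in wild type at 360 h before TMM scaling. The fall was shared by the other cells, with 249.5 CPM in knockout at 260 h and 1.50 CPM in knockout libraries 2 and 3 at 360 h, before TMM scaling. The histone gene Hist1h2ae, Tmem238, C1qtnf12, Gm44264, Fam120aos, Gm10479, 9030624G23Rik, Brinp2 and Cldn3 were at 0 in both knockout libraries at 360 h, and at means of 9.05 to 19.7 CPM in knockout at 260 h. Several were low in wild-type class cells at 260 h already. Tmem238 had 0, 0 and 2.98 CPM there and Gm44264 0, 0 and 1.70 CPM, while C1qtnf12 had 13.1, 13.9 and 7.24 CPM. Each of the genes at 0 was also lower at 360 h in the other cells of the knockout libraries, where some were low at both times. In those other cells Gm44264 was at 0.209 CPM against 16.7 CPM at 260 h, before TMM scaling.

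Of 22 pachytene genes tested 12 rose and none fell, with a median of 1.58. Ldhc was at 1546 and 1392 CPM against 276, 270 and 153 CPM (2.65 ± 0.36, edgeR adjusted p = 0.000469), and Crisp2, a sperm protein gene, at 364 and 437.5 CPM against 9.69, 29.6 and 12.8 CPM (4.52 ± 0.49, adjusted p = 0.000223). Piwil1, of pachytene piRNAs, rose from a mean of 87.1 to 400.1 CPM, and Hspa2, the heat shock gene of spermatocytes, from 263 to 884 CPM. Of 32 genes of meiotic entry 4 rose: Spo11, which makes meiotic breaks (11.8 to 63.3 CPM), Hormad1, of the chromosome axis (129 to 345 CPM), and the telomere attachment genes Terb1 and Terb2.

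The genes that rose in the class were mostly higher still in the other cells of the same libraries. Of the 586, 544 (92.8%) were higher in the other cells of the same 2 libraries than in the class cells, against 38.1% of genes not called and 24.4% of those that fell. The class level was a median of 48.7% of the level in the other cells, with 80% of genes between 32.1% and 81.7%. Among genes of at least 200 CPM in the other cells, the lowest class level was 11% of the other cells' in knockout library 2 at 360 h and 18.4% in library 3. At 260 h the lowest was 3.57% to 10.5% by library. The part of transcripts from other cells in these values was not tested. Of the 586 genes 24 (4.1%) were at least 2-fold higher in the class than in the other cells. That share was lower than among genes not called (31.7%) and those that fell (38.2%). Chosen after their values were seen, the 24 included Foxn4, a forkhead gene (0, 0 and 0.753 CPM at 260 h and 19.0 and 24.5 CPM at 360 h), Spp1, the osteopontin gene (45.4 CPM against 2.17), Igsf21 (29.9 against 0.548) and Psme2b, a proteasome activator copy (107 against 26.2).

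Also among the 10 largest fold changes upward were Il1bos, Gm36634, Gm34284, Gsc2, AC140207.3 and 1700015C15Rik. Gsc2, a homeobox gene, was at 13.4 and 10.9 CPM against 0, 0.477 and 0 CPM, and AC140207.3 at 74.7 and 103 CPM against 2.08, 0.477 and 3.76 CPM. Il1bos had 0 UMIs at 260 h in knockout and 7.81 and 12.7 CPM at 360 h. Gm36634 rested mainly on library 3, at 86.1 CPM against 10 CPM in library 2.

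Whether the knockout acted on the class as on the other cells of the same libraries was tested at 260 h by the interaction of class and genotype, with the library as a block. Of 14307 genes, the effect in the class lay above that in the other cells for 25 (0.175%) and below it for 201 (1.4%) in edgeR's test. None of the 7 markers was among them, with Zrsr2 nearest (0.78 ± 0.21, adjusted p = 0.0767). Of 82 ribosomal protein genes 12 were below and none above, with a median of −0.38 against −0.13 over all genes. Rps19, of the small subunit, had −0.95 ± 0.14 (adjusted p = 0.00121, chosen after its value was seen). Among the genes with an effect below that in the other cells, Asns, the asparagine synthetase gene, was at 24.8 CPM in knockout class cells against 24.3 in wild type, while the other cells had 90.1 CPM against 7.45 (adjusted p = 0.000136). Rasgrp2, an activator of Ras-family GTPases, was at 65.4 against 44.9 CPM in the class and at 137 against 7.10 in the other cells (adjusted p = 1.3e-05). Akap7 was above, at 52.8 against 6.38 CPM in the class and 16.8 against 17.9 in the other cells (2.99 ± 0.49, adjusted p = 0.0038). The counts moved with single libraries, from 6 higher and 59 lower without wild-type library 2 to 157 and 254 without wild-type library 1.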

How the data were processed

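Full-length cDNA of single cells was made by a Smart-seq2 type protocol with cell barcodes and molecular identifiers, per the labels' protocols. The deposited tables hold UMI counts per gene and cell, with ERCC spike-ins. Per the submitters' processing notes, mm10 was used with featureCounts 1.6.4, STAR 2.5.3a and UMI-tools 1.0.0. No source used here states the use of strand, the input of the clustering or whether spike-ins entered it, so antisense and overlapping genes are uncertain.

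Kept cells and classes were taken from the deposited cell table. Counts were summed per library over class cells and over other cells, and spike-in rows stayed out of library sizes. Class against other cells is a description: TMM-scaled CPM with a pseudocount of 1, in 8 libraries with at least 5 class cells. Genotype and time were tested with edgeR 4.0.16 (R 4.3.3; TMM, filterByExpr, robust quasi-likelihood fit, Benjamini-Hochberg adjusted p under 0.05), with 1 coefficient per group over the 8 libraries. Alternatives used DESeq2 1.42.0 and limma 3.58.1. The edgeR fit was also run on simulated data, whose outcome is not given here and lends no weight to any call. Within-group libraries differed beyond sampling noise (chi-square per degree of freedom of at least 3.604 over genes).

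Named genes are the markers, the 12 largest class differences in each direction (mean of at least 20 CPM, no predicted genes), the 3 most abundant members of each list, and every called gene or, above 20, the 10 largest changes each way without overlap. Other list members were chosen after their values were seen. The members and lists were chosen with earlier results of these data known. Knockout library 1 and the wild-type libraries at 360 h, with 0 to 2 class cells, entered no test. UMIs limit counting error only as far as intervals and floors state it. The values of 1 gene are not reported here.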

Additional observations from a re-analysis of the deposited data

Results flagged for a closer look

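At 260 h the effect of the knockout in the class differed from its effect in the other kept cells of the same libraries for 25 genes upward and 201 downward, by edgeR's test of the interaction. The 10 genes of largest difference each way are given as the log2 effect in the class minus that in the other cells. Upward they were Gm26822 (9.49), Crybg3 (4.00), Ap1s2 (3.23), Galnt3 (2.99), Akap7 (2.99), Cenpu (2.41), Pou2f2 (2.32), Ak9 (2.14), Ercc5 (2.06) and Zfp820 (1.99). Gm26822 had no UMI in the wild-type class cells, so its fitted value is no bound. Crybg3, a crystallin-domain gene, was at 78.2 CPM in knockout class cells against 22.9 in wild type, and at 8.45 CPM against 57.0 in the other cells. Neither Pou2f2, the OCT2 transcription factor gene, nor Zfp820, a zinc finger gene, was called between genotypes within the class. Pou2f2 was at 18.7 against 59.3 CPM in the class and at 8.62 against 109 in the other cells. Its class libraries overlapped between genotypes, and its wild-type mean rested on library 3 (134 CPM when scaled over the class sums alone). Zfp820 was at 8.67 against 43.6 CPM in the class and at 14.4 against 262 in the other cells.

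Downward they were Adgrb2 (−4.86), Vangl2 (−3.87), Dzip1l (−3.70), Iqgap2 (−3.70), Ctcfl (−3.67), Asns (−3.63), Rasgrp2 (−3.55), Nhlrc1 (−3.40), Ankrd6 (−3.37) and Arhgef39 (−3.14). Ctcfl, the testis paralog of the insulator protein CTCF, was at 13.9 CPM in knockout class cells against 8.60 in wild type, and at 52.3 CPM against 1.54 in the other cells. Vangl2, a planar polarity gene, was at 11.8 against 16.3 CPM in the class and at 23.6 against 2.52 in the other cells. For these genes and for Asns and Rasgrp2 the larger difference between genotypes stood in the other cells.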

How the results depend on the processing

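In the class description all 7 markers stayed higher under every setting, with a median of 2.84 to 3.24 when each library was left out. This is no test, because the 7 genes mark a class that was cut from these same cells. With each library left out the counts ran from 1938 to 2072 genes higher and 1756 to 2004 lower. The same sign was then needed in 7 libraries and not in 8, an easier rule. Against early pachytene cells alone 962 were lower, and 2049 in the 260 h libraries, where knockout library 2 at 360 h with its 5 early cells was left out. Those 5 cells had an X-linked share of 2.69%, above that of the class, so the counts with them are no plain comparison with pachytene cells. Of the genes past the rule, 50.7% were higher under TMM, 63.7% scaled by total UMIs, 57.7% by spike-in UMIs and 66.9% against early pachytene cells (51.7% at 260 h), and the median of all genes was 0.14 by total UMIs. Gene UMIs per spike-in UMI ran from −0.122 to −0.0691 with each library left out. The difference was −0.12 without knockout library 1 or 2 at 260 h, the 2 where the class was higher (exact sign-flip p = 0.0469, descriptive only). It was 0.0833 against early pachytene cells and −0.05 in the 260 h libraries alone.

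For the genotype at 260 h the counts of 2 higher and 2 lower became 121 and 107 with DESeq2, 143 and 129 with no filter, 4 and 8 scaled by spike-in UMIs, 5 and 4 with at least 10 class cells, 3 and 1 with only the 260 h libraries, and 0 and 0 with limma-voom or thinned cells. Leaving out 1 library gave 0 to 159 higher and 0 to 210 lower. Stra8 changed sign, to −0.0437 with DESeq2, −0.0179 by spike-ins and −0.00394 with only the 260 h libraries. With 1 library left out it ran from −1.27 (knockout library 2) to 1.84, and was −0.33 and −0.53 for wild-type libraries 1 and 3. The replicate block gave 4 and 1. Same-numbered libraries had correlations of −0.13, −0.16 and 0.13 between their deviations, so the numbers did not pair them.

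For time in the knockout, with alternatives chosen after seeing the data, the counts of 586 and 401 became 607 and 208 with limma-voom and 336 and 35 by spike-ins. They were 746 and 594 with DESeq2 and 631 and 372 with the replicate block. Under that block Stra8 had an edgeR adjusted p of 0.00659, against 0.239 without it. The replicate numbers state no pairing of libraries, so the block does not make Stra8 a called gene. Leaving out 1 library gave 127 to 485 higher and 17 to 275 lower, with 1 library at 360 h in the lowest cases. For the interaction, 25 and 201 became 57 and 161 with DESeq2 and 102 and 115 with no filter, and 6 to 157 and 58 to 254 with a library left out. Zbtb16 changed sign there, to 0.14 with no filter, and ran from −0.29 to 0.33 with 1 library left out, above 0 in 4 of the 6 cases. Stra8 ran from −0.38 to 0.42, below 0 without knockout library 2 or without the third wild-type one (−0.15). Where no value or construction shows the cause of a move, the cause was not tested. Libraries with 9 to 24 class cells limit what the sums resolve. Before TMM scaling, 3 UMIs made 1.05 CPM in knockout library 1 at 260 h, the deepest, and 4.39 CPM in wild-type library 2 at 260 h. In the wild-type libraries at 360 h they made 11.5 to 26.8 CPM.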
